A study of Mus musculus with 9 samples.

Results

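The genes described here encode the protein components of the cytosolic ribosome in mouse liver tumours. They are the 82 rows, of 32761 in the deposited gene table, whose symbol is Rpl or Rps followed by a number with at most the letter a, l or x after it, or is Rpsa, Rplp0, Rplp1 or Rplp2. The study placed tumours of Hepa1-6-luc, a luciferase-carrying mouse hepatoma cell line, in the livers of mice and sequenced tumour RNA at day 14 from 3 treatment groups with 3 tumours each. In the group labelled Co+Len@OVA+anti-PD1, drug-loaded nanoclusters at 2 mg/mL were injected into the tail vein every 3 days together with anti-PD1, an antibody against the T cell checkpoint receptor PD-1, at 50 µg per injection every 4 days. The labels do not spell out what Co stands for, and the group is called the nanocluster group below. In the group labelled Lenvatinib+anti-PD1, here the lenvatinib group, free lenvatinib, an inhibitor of vascular and fibroblast growth factor receptors, was given at the equivalent concentration on the same schedule with the same antibody. The group labelled Control is described by that word alone. All 9 libraries come from tumours of this 1 cell line, and the sources used here give neither strain nor age of the mice.

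A cytosolic ribosome joins a small subunit, which decodes the messenger RNA, to a large subunit, which forms the peptide bonds, and each of its proteins is needed in about equal number. Transcripts of these proteins are among the most abundant in growing cells. Most of them begin with a C followed by a run of pyrimidines, the 5′ terminal oligopyrimidine (TOP) element, through which the growth kinase complex mTORC1 and its effector LARP1 control their translation. Because that control acts on translation, RNA levels such as those measured here are one layer of ribosome production and not a measure of it.

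The TOP element was looked for in the annotated starts of the members, because it is the sequence feature best known to unite them. RefSeq promoter windows on build GRCm38.p6 matched 60 of the 82 members. In 14 of these 60 genes (23.3%) the annotated first base was a C followed by at least 4 further pyrimidines on the sense strand, against 3.01% of the 27025 genes in the table and 2.90% of 10573 other tested genes. These 6 windows show the element with 15 bases before the annotated start and 15 from it, with the pyrimidine run in capitals:
Rps6 (chr4:86857353-86857382, minus strand): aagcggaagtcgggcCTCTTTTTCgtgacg
Rps27 (chr3:90213634-90213663, minus strand): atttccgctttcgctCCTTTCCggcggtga
Rps18 (chr17:33955651-33955680, minus strand): tacgtcacttccgctCTCTCTTCCacagga
Rps15a (chr7:118116133-118116162, minus strand): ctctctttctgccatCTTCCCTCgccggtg
Rpl38 (chr11:114668565-114668594, plus strand): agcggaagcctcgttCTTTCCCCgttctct
Rplp2 (chr7:141447636-141447665, plus strand): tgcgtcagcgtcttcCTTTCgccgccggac
A match depends on the exact annotated base, so a window without one says only that these letters do not start there.

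The letters CCGGAAGT, the core bound by ETS-family factors, occurred on either strand of the 300-base window (250 bases before the start and 50 from it) in 12 of the 60 members (20.0%), against 4.31% of all genes in the table and 8.51% of other tested genes. Shares of members and of all genes were closer for CACGTG, an E-box (6 of 60 members against 8.09%, and 11.4% of other tested genes). They were also closer for TATAAA, a core promoter element (11.7% against 15.7%, and 9.77% of other tested genes). For each, the members' share lay between those backgrounds. The windows of Rpl11, one of the members that fell below, and of Rpl26, one that was higher in a comparison below, are shown with CCGGAAGT in capitals:
Rpl11 (chr4:136053379-136053408, minus strand): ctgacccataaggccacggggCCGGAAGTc
Rpl26 (chr11:68901551-68901580, plus strand): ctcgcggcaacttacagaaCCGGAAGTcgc

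The values are FPKM, a fragment count divided by transcript length and library size, and the columns sum to 331611 to 372794 FPKM. Depth is not known, because whole fragments could not be recovered from the values. In the nanocluster group, library 3 lay between libraries 1 and 2 for 96.8% of the 278 genes more than 4-fold apart in those libraries. The share was 97.2% of 284 such genes in the lenvatinib group and 94.0% of 350 in Control. Choosing genes by a wide gap between libraries 1 and 2 itself raises this share. Libraries 1 and 2 were not examined in the same way. The share for all tested genes was 65.4%, 45.2% and 66.5%, and for the members 64, 57 and 70 of 82. The labels give the 9 libraries as separate tumours. Whether the third libraries are independent of libraries 1 and 2 in their group was not tested, and every p-value and SD with n = 3 below takes them as independent. Without the third libraries no member passed the threshold in any comparison, at a background of 0.410%, 0.130% and 1.93% of all tested genes lower and 0.111%, 0.215% and 0.443% higher. In that smaller fit, with 3 residual degrees of freedom, 19, 6 and 3 members were lower at an unadjusted p under 0.05 for nanocluster against Control, lenvatinib against Control and nanocluster against lenvatinib, and the members' median log2 fold changes were -0.39, -0.22 and -0.15. None of the counts of passing members below is reached without the third libraries.

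Cytosolic ribosomal protein transcripts held a smaller part of the FPKM total in nanocluster-treated tumours than in Control tumours. FPKM are divided by transcript length, so this part is not a share of RNA mass. Pseudogene rows, described below, are not counted in it. The 82 genes together held 12.2%, 10.9% and 11.0% of the FPKM total in Control libraries 1 to 3, a mean of 11.4% ± 0.74 (SD, n = 3). They held 8.82%, 9.43% and 9.29% in the nanocluster group (9.18% ± 0.32) and 10.5%, 8.78% and 9.82% in the lenvatinib group (9.71% ± 0.88). Every nanocluster and every lenvatinib library lay below every Control library, whereas the treated groups overlapped, with lenvatinib library 2 the lowest of all 9. With mitochondrially encoded transcripts taken out of the total the lenvatinib and Control groups overlapped: lenvatinib library 1 was at 12.6%, above Control libraries 2 and 3 at 12.3% and 12.5%, and the lowest of all 9 was nanocluster library 1 at 10.1%. In bulk tumour RNA, fewer cells of a type with high ribosomal protein expression and less of this RNA per cell cannot be told apart.

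**Figure D1:**
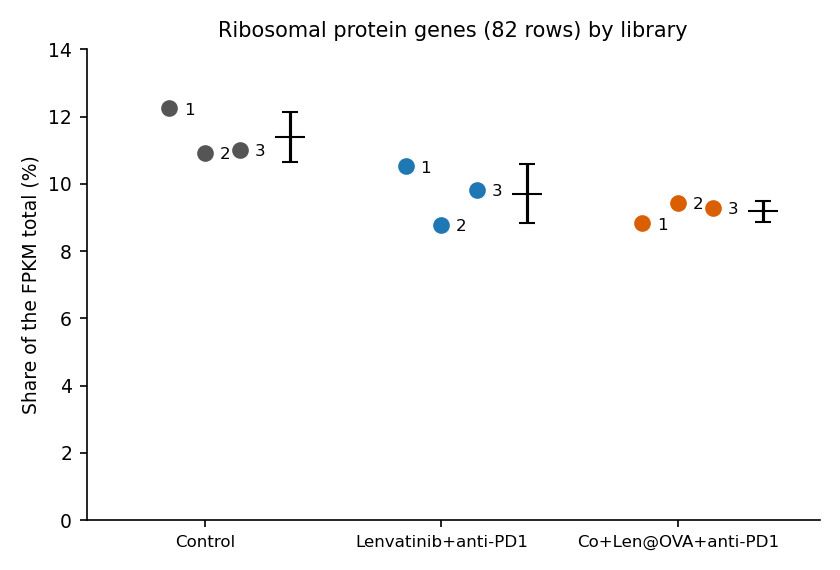
Percent of each library's FPKM total held by the 82 cytosolic ribosomal protein genes (y axis, from 0), by group (x axis). Points are single libraries marked with their number and the bar and whiskers are the mean and SD of 3: the Control libraries sit between 10.9% and 12.2%, above the treated libraries on this total but not all above them once mitochondrially encoded transcripts are left out.

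Library 1 of Control was the highest of all 9 libraries for 70 of the 82 members, and library 1 of the nanocluster group was the lowest for 61. Within groups, Control library 1 was the highest for 76 members, lenvatinib library 1 for 57, and lenvatinib library 2 was the lowest for 75. Most members thus shared an order of libraries within and between groups. How many of all tested genes share that order was not counted, so it is not shown to be particular to the members. Control library 1 also had the highest summed hepatocyte and hepatoma markers (5743 FPKM) and the lowest summed T cell markers (15.2 FPKM) of the 3 Control libraries. Hepatocyte and hepatoma markers, 8 of 8 found and none at 0, summed to 996 to 1308 FPKM in the nanocluster group, 3642 to 3891 in the lenvatinib group and 2702 to 5743 in Control.

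Within a library the members kept nearly fixed proportions. The summed FPKM of large-subunit genes was 1.52 to 1.56 times that of small-subunit genes in every library, and the 3 stalk genes Rplp0, Rplp1 and Rplp2 held 10.6% to 11.5% of the members' sum. Mean levels, which are per transcript length, ran from 32.3 to 1892 FPKM over the 76 core genes, those that are neither tissue-restricted paralogues nor pseudogene-like rows, with a median of 350. These are levels of each gene's own row, without the pseudogene rows described below. Rpl34, at the low end, had pseudogene rows at 3676% of its own value. Of all 82, 70 exceeded 100 FPKM and 4 stayed below 10. Rplp0, the base of the stalk that recruits elongation factors, was the most abundant with 2413, 1967 and 2124 FPKM in Control, 1828, 1707 and 1853 in the lenvatinib group and 1523, 1887 and 1723 in the nanocluster group. Rplp1, an acidic stalk protein bound to Rplp0, came next with a mean of 1561 FPKM, followed by Rps15, a small-subunit head protein, with 1277. Their ranges over libraries overlap, so the order of the last pair is not separated by the spread. With pseudogene rows added, Rpl17 was at 1482 to 2339 FPKM over the libraries and Rps12 at 1234 to 2213. The order of abundance therefore holds for own rows only.

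Proportions were steady for most core genes. Relative to the median core gene of the same library, the SD of a gene's log2 level over the 9 libraries had a median of 0.083 and was under 0.1 for 49 of 76 genes. Rpl15, Rpl18 and Rpl27, chosen after their values were seen, were the steadiest at 0.030, 0.032 and 0.033. Rpl7a (0.505), Rpl26 (0.431) and Rpl34 (0.409) were the only core genes above 0.3 and are described separately below.

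In nanocluster-treated against Control tumours, 46 of the 81 tested members fell and 1 rose (limma, Benjamini-Hochberg adjusted p under 0.05 over all 15353 genes tested); the rise was in Rps4l. Over all tested genes 12.7% fell and 20.9% rose. The members' median log2 fold change was -0.35, against 0.13 for all genes, and 77 of 81 were negative. The 3 nanocluster libraries all lay below the 3 Control libraries for 64 members, where 17.3% of all tested genes did so, and all above for 2, where 32.4% did. Under median-of-ratios scaling the median of all genes moved from 0.13 to 0.02 and the split of all genes from 20.9% higher and 12.7% lower to 14.4% and 17.6%, while 53 members were lower and 1 higher. Upper-quartile scaling gave 16.3% higher and 15.9% lower over all genes. The count of members depended on single tumours: it was 17 without nanocluster library 3, 18 without nanocluster library 1, 21 without Control library 3, 30 without Control library 1 and 25 with the 2 groups fitted alone. The members' median stayed negative in all 20 settings, between -0.49 and -0.26.

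**Figure D2:**
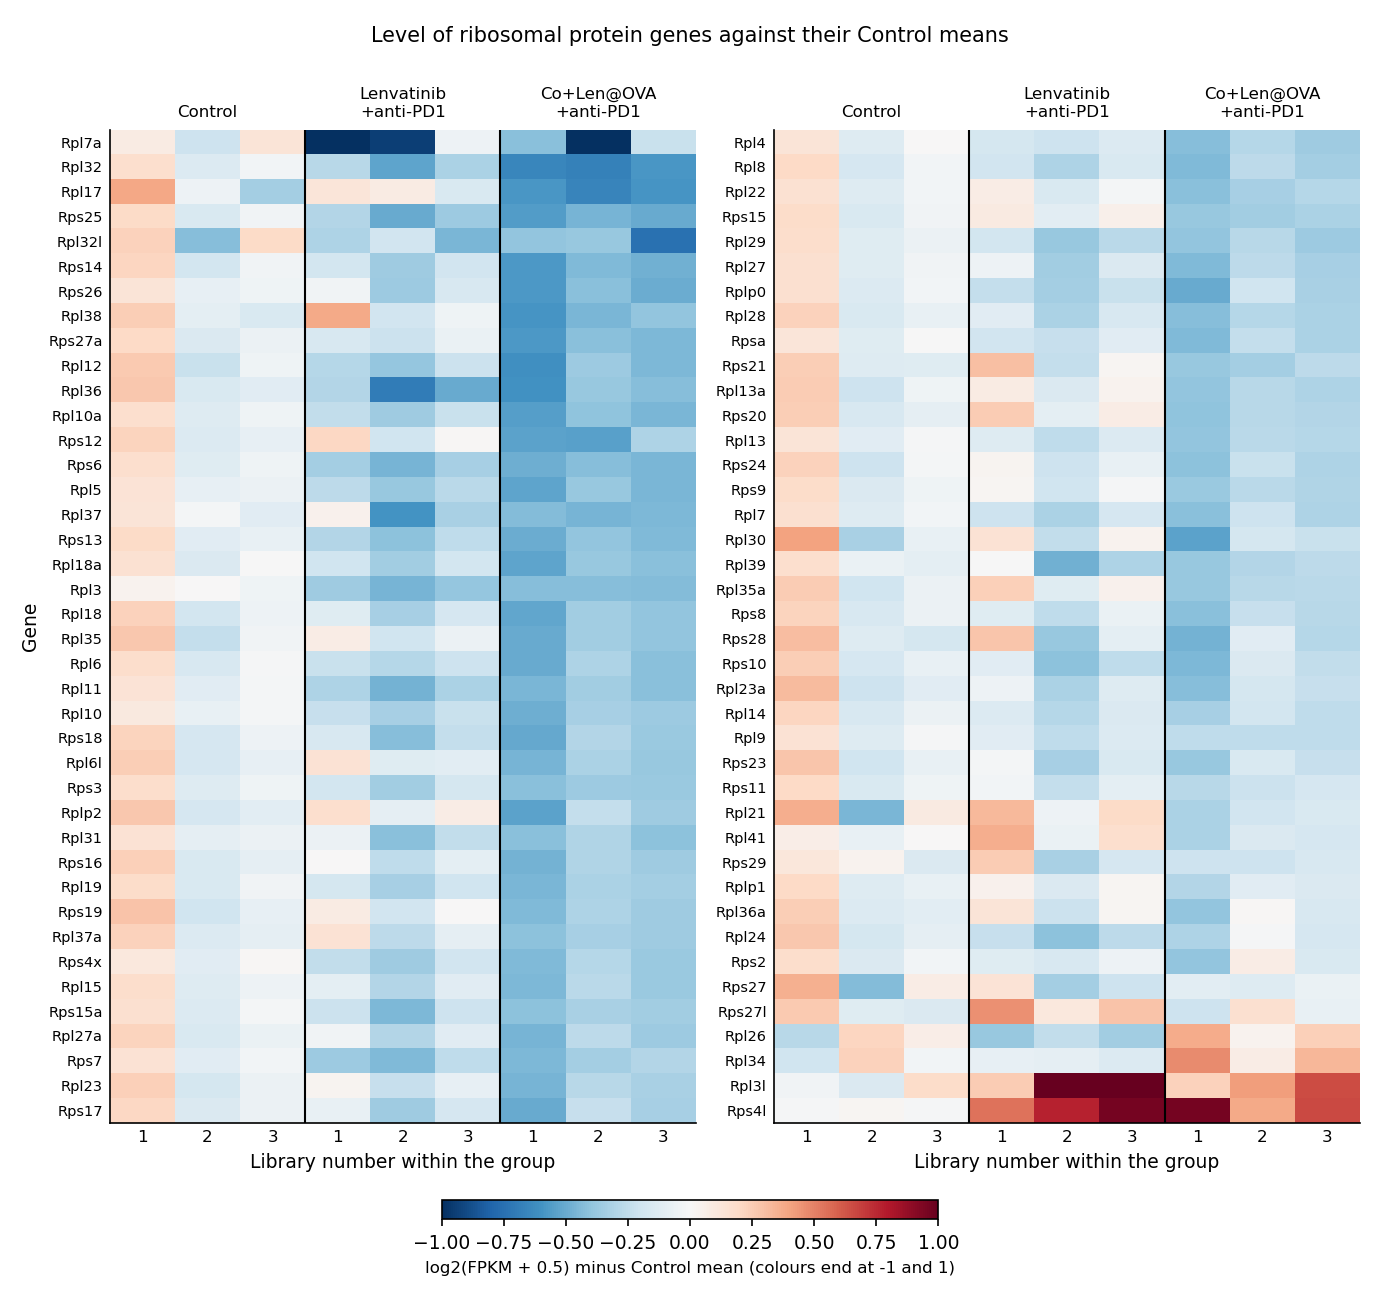
Each row is 1 of 80 of the tested members, ordered by its nanocluster-against-Control log2 fold change, and each column is a library; colour shows log2(FPKM + 0.5) minus the gene's Control mean, with colours ending at -1 and 1. Most rows are below the Control mean in all 3 nanocluster columns, and Control library 1 is above it for most rows.

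Both subunits took part. Of 30 small-subunit genes 17 fell, with a median of -0.36, and of 46 core large-subunit genes 28 fell, with a median of -0.35. The falls that passed were modest, from -0.64 to -0.26 on the log2 scale. Of the 14 members with the TOP element at an annotated start, Rpl32l among them, 6 fell. Of the 46 members with a promoter window but without it 28 fell, with a median of -0.36 in each set.

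Among large-subunit genes, the largest fall was in Rpl32. Its transcript was at 981, 794 and 855 FPKM in Control libraries 1 to 3, 722, 607 and 701 in the lenvatinib group and 555, 545 and 583 in the nanocluster group. The 3 groups did not overlap in the order Control, lenvatinib, nanocluster, and the log2 fold change against Control was -0.64 ± 0.10, adjusted p = 0.00277 (limma). Rpl3, which reaches into the peptidyl transferase centre, had the smallest adjusted p among core genes at 0.00133. It was at 356, 348 and 336 FPKM in Control libraries 1 to 3, 271, 251 and 264 in the lenvatinib group and 257, 257 and 257 in the nanocluster group. On these values of its own row both treated groups lay below Control and overlapped each other (-0.43 ± 0.06 in nanocluster against Control). Its pseudogene rows, described below, summed to 186% of its own value. With them added, the log2 ratio of means against Control was -0.56 in the nanocluster group and -0.38 in the lenvatinib group. These sums did not overlap between the treated groups, at 639, 722 and 698 FPKM (nanocluster) and 798, 728 and 810 (lenvatinib). Rpl10, which joins the large subunit late and helps form the transfer RNA sites, fell by 0.39 (adjusted p = 0.00626).

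Rpl5 and Rpl11 carry the 5S ribosomal RNA into the large subunit and, when free, bind the p53 regulator MDM2. Rpl5 was at 318, 274 and 278 FPKM in Control libraries 1 to 3, 242, 223 and 241 in the lenvatinib group and 201, 223 and 211 in the nanocluster group, with a log2 fold change of -0.45 ± 0.08, adjusted p = 0.00437 (limma) in nanocluster-treated tumours. Rpl11 was at 262, 220.4 and 235 FPKM in Control libraries 1 to 3, 192, 172 and 192 in the lenvatinib group and 174, 187 and 179 in the nanocluster group and fell by 0.41 ± 0.08 (adjusted p = 0.00792). For both genes every nanocluster library was below every Control library.

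The largest falls among small-subunit genes were in Rps25, Rps14, Rps26 and Rps27a. Rps25, a protein near the transfer RNA exit site, was at 251, 198 and 214 FPKM in Control libraries 1 to 3, 179, 155 and 171 in the lenvatinib group and 149, 159 and 155 in the nanocluster group, all nanocluster libraries being below all Control libraries (-0.51 ± 0.10, adjusted p = 0.00630, limma). Rps14, whose human counterpart is lost in the 5q- syndrome, stood at 702, 533 and 592 FPKM in Control and 407, 445 and 433 in the nanocluster group (-0.50 ± 0.11, adjusted p = 0.00993). Rps26, a protein at the messenger RNA exit, fell by 0.50 (adjusted p = 0.00805).

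Rps27a is made as a fusion with ubiquitin and was at 413, 325 and 344 FPKM in Control libraries 1 to 3, 321, 309 and 342 in the lenvatinib group and 240.3, 269 and 263 in the nanocluster group. Its log2 fold change against Control was -0.48 ± 0.10, adjusted p = 0.00879 (limma), without overlap. Rps6, the substrate of S6 kinase that is widely used as a readout of mTORC1 signalling, was at 941, 769 and 814 FPKM in Control libraries 1 to 3, 663, 605 and 665 in the lenvatinib group and 596, 622 and 611 in the nanocluster group; the nanocluster and Control ranges did not overlap (-0.46 ± 0.09, adjusted p = 0.00581). This is the transcript of Rps6 and says nothing of the phosphorylation of its protein.

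Other members with known roles split around the threshold. Rpsa, a small-subunit protein also described as a laminin receptor precursor, fell by 0.34 (adjusted p = 0.0192), as did Rplp0 by 0.34 (adjusted p = 0.0381) and Rps4x, a small-subunit protein from the X chromosome, by 0.37 (adjusted p = 0.0120). Values did not pass for Rplp2 (-0.38, adjusted p = 0.0602), Rplp1 (-0.18, adjusted p = 0.205) or Rps19, the gene most often mutated in Diamond-Blackfan anaemia (-0.37, adjusted p = 0.0566). Rpl13a, known for silencing of inflammatory transcripts when released from the ribosome, was at -0.32 (adjusted p = 0.0676) and Rpl39, a small protein lining the exit tunnel, at -0.31 (adjusted p = 0.0910). Rps27, a zinc-finger protein of the small subunit, was at 185, 107 and 151 FPKM in Control libraries 1 to 3, 158, 114 and 125 in the lenvatinib group and 134, 132 and 137 in the nanocluster group, with wide overlap (-0.10, adjusted p = 0.720).

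Cell type markers moved with this comparison. T cell markers (7 of 7 found, none at 0) summed to 134 to 192 FPKM in the nanocluster group, 52.2 to 56.2 in the lenvatinib group and 15.2 to 68.3 in Control, and 6 of 7 rose in nanocluster against Control. Of the 8 hepatocyte and hepatoma markers 6 fell. Erythroid markers (5 of 5 found, none at 0) summed to 2063 to 2994, 176 to 433 and 295 to 602 FPKM in the same order, and all 5 rose. Macrophage markers (6 of 6 found, none at 0) summed to 1662 to 1950, 412 to 502 and 272 to 1155 FPKM, and 1 of 6 rose. B and plasma cell markers (5 of 5 found, Ms4a1 at 0 in lenvatinib library 2) summed to 192 to 253, 22.9 to 36.8 and 58.1 to 69.2 FPKM. Of the 5 adipocyte markers 2 rose, as did 1 of the 4 neutrophil and 2 of the 4 tested B and plasma cell markers. None of the 5 endothelial (median log2 fold change 1.05), 5 fibroblast (0.13) or 8 striated-muscle markers (1.74) passed. The part of these cell types in the fall of ribosomal protein transcripts was not tested.

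In lenvatinib-treated against Control tumours, 11 of 81 tested members fell and 1, again Rps4l, rose (limma), where 9.87% of all tested genes fell and 13.8% rose. The share of members that fell is close to that background. The median log2 fold change of members was -0.17, against 0.05 for all genes, and 68 of 81 were negative. The median was -0.09, with 53 negative, without Control library 1 and -0.12, with 57 negative, without lenvatinib library 2. Library ranges did not overlap for 23 members that were lower and 2 that were higher, where 17.4% and 26.1% of all genes were so. This comparison uses the same Control libraries as the one before it, so their results are not independent.

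The 11 were Rpl36, Rpl3, Rps25, Rps6, Rpl32, Rpl11, Rps7, Rps13, Rpl5, Rps4x and Rpl10, with log2 fold changes from -0.50 to -0.26. All 11 also fell in nanocluster against Control. Rpl36, a large-subunit protein, was at 1309, 973 and 999 FPKM in Control libraries 1 to 3, 886, 666 and 763 in the lenvatinib group and 711, 835 and 806 in the nanocluster group; Control library 1 stood above the other Control libraries, and both treated groups lay below Control and overlapped each other (-0.50 ± 0.15, adjusted p = 0.0403, limma). For Rpl3 the log2 fold change was -0.40 ± 0.06, adjusted p = 0.00221, for Rps25 -0.39 ± 0.10, adjusted p = 0.0239 and for Rps6 -0.38 ± 0.09, adjusted p = 0.0158. Rps13 and Rps7, both small-subunit proteins, fell by 0.32 (adjusted p = 0.0383) and 0.35 (adjusted p = 0.0237). Rps4x was just inside the threshold (adjusted p = 0.0495).

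This count moved with the settings. It was 1 without lenvatinib library 2, 3 without Control library 3, 4 without lenvatinib library 3, 5 without nanocluster library 3, 3 with the 2 groups fitted alone, 5 under median-of-ratios scaling and 19 without Control library 2. On the TPM scale it was 30, and there the split of all genes turned from 13.8% higher and 9.87% lower to 9.42% and 11.0%. Rpl3 stayed past the threshold in 19 of 20 settings and Rps6 and Rpl11 in 18. Mitochondrially encoded transcripts took 16.3% to 17.9% of the total in the lenvatinib group, 11.1% to 13.2% in Control and 12.3% to 12.8% in the nanocluster group, and 9 of 13 of these messenger RNAs rose in lenvatinib against Control. Without those transcripts in the total the members' mean share was 10.5%, 11.7% and 13.0% in the nanocluster, lenvatinib and Control groups.

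Markers of other cell types also moved between lenvatinib and Control. Of 8 striated-muscle markers 7 rose (median log2 fold change 5.47), with sums of 28.8, 4182 and 1657 FPKM in lenvatinib libraries 1 to 3 against 1.46 to 39.6 in Control, and lenvatinib library 2 is also the one lowest in its group for 75 members. Of 4 neutrophil markers, none at 0, 3 fell, with sums of 20.4 to 33.1 against 74.1 to 99.6 FPKM. Of 5 adipocyte markers 2 rose, with sums of 46.4 to 565 against 5.06 to 15.2 FPKM and Adipoq, Cfd or Plin1 at 0 in Control libraries 1 or 2. Of the 4 tested B and plasma cell markers 1 fell, and of the 5 fibroblast markers 1 rose. None of the T cell, macrophage, endothelial, hepatocyte and hepatoma or erythroid markers passed. The part of these cells in the members' values was not tested.

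In nanocluster-treated against lenvatinib-treated tumours, 10 of 81 tested members were lower and 2 higher (limma), where 12.0% of all tested genes were lower and 17.3% higher. The members' median was -0.16, against 0.07 for all genes, and 76 of 81 were negative. The nanocluster libraries all lay below the lenvatinib libraries for 34 members (20.4% of all genes) and above for 2 (34.3%). Both groups also enter the comparisons with Control. Here too the share called lower is near the background, although the direction is shared by most members.

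Of the 10, 6 were also lower against Control, among them Rpl17, Rps27a, Rps12, Rps15 and Rpl22. Rpl17 is described with its pseudogenes below, and Rps27a was at -0.33 (limma adjusted p = 0.0390) against lenvatinib. Rps12, a small-subunit protein, was at 427, 334 and 347 FPKM in Control libraries 1 to 3, 424, 319 and 370.5 in the lenvatinib group and 254, 252 and 296 in the nanocluster group, so that the nanocluster libraries were below all others and lenvatinib and Control overlapped (-0.47 ± 0.13, adjusted p = 0.0338, limma). Rpl22, which is needed for alpha-beta T cell development in mice, was at 93.2, 76.4 and 81.9 FPKM in Control libraries 1 to 3, 87.8, 75.2 and 82.6 in the lenvatinib group and 62.3, 66.3 and 68.3 in the nanocluster group, in the same pattern (-0.32 ± 0.09, adjusted p = 0.0336). Rps15 was at 1551, 1233 and 1337 FPKM in Control libraries 1 to 3, 1458, 1273 and 1414 in the lenvatinib group and 1050.3, 1076 and 1097 in the nanocluster group and had -0.36 ± 0.10, adjusted p = 0.0257, while lenvatinib against Control gave 0.01.

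The other 4 were Rpl38, Rplp2, Rps20 and Rpl41, which passed against lenvatinib; Rps20 and Rpl41 were at -0.32 (adjusted p = 0.0789) and -0.21 (adjusted p = 0.174) against Control. Rpl38, known for its part in the translation of Hox transcripts in mouse embryos, was at 371, 292 and 282 FPKM in Control libraries 1 to 3, 407, 273 and 303 in the lenvatinib group and 207, 227 and 238 in the nanocluster group, lenvatinib library 1 being the highest of 9 (-0.53 ± 0.16, adjusted p = 0.0424, limma). Rplp2, the partner of Rplp1 in the stalk, was at 545, 401 and 420.4 FPKM in Control libraries 1 to 3, 507, 425 and 475 in the lenvatinib group and 311, 382 and 352 in the nanocluster group (-0.43 ± 0.13, adjusted p = 0.0449). The ranges of the nanocluster and lenvatinib groups did not overlap for either gene.

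The count of 10 was 0 without nanocluster library 1 or without nanocluster library 3, 1 without nanocluster library 2, lenvatinib library 1 or lenvatinib library 3, 2 without Control library 3, 15 without Control library 2 and 24 without Control library 1. On the TPM scale 3 members were lower and 2 higher, with a median of -0.05 and 58 of 81 negative, and with 21.9% of all genes higher and 8.64% lower, and under median-of-ratios scaling the split of all genes was 13.6% higher and 15.2% lower. In this comparison 5 of 7 T cell, 4 of 6 macrophage, 4 of 4 neutrophil, 3 of 4 tested B and plasma cell and 5 of 5 erythroid markers rose. Of the 8 hepatocyte and hepatoma markers 6 fell, as did 1 of 5 fibroblast markers. None of the 5 endothelial (median log2 fold change 1.03), 8 striated-muscle (-3.80) or 5 adipocyte markers (0.11) passed. Their part in the members' values was not tested.

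The members higher in the nanocluster than in the lenvatinib group were Rpl26 and Rpl34. Rpl26, which sits at the exit of the peptide tunnel and binds the p53 messenger RNA, was at 78.7, 111 and 100.2 FPKM in Control libraries 1 to 3, 73.6, 80.5 and 75.1 in the lenvatinib group and 124, 97.7 and 113 in the nanocluster group. All nanocluster libraries lay above all lenvatinib libraries, with Control spread across both (0.54 ± 0.13, adjusted p = 0.0205, limma). Against Control it was at 0.21 (adjusted p = 0.243) in the nanocluster group and -0.32 (adjusted p = 0.117) in the lenvatinib group. Rpl34, a large-subunit protein, was at 26.5, 35.9 and 29.9 FPKM in Control libraries 1 to 3, 28.9, 28.7 and 27.8 in the lenvatinib group and 42.5, 32.2 and 38.7 in the nanocluster group, again without overlap of the treated groups (0.40 ± 0.13, adjusted p = 0.0489). For both genes nanocluster library 1 was the highest and Control library 1 the lowest of its group, the reverse of most members. Rpl26 kept its call in 14 of 20 settings and Rpl34 in 7.

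**Figure D3:**
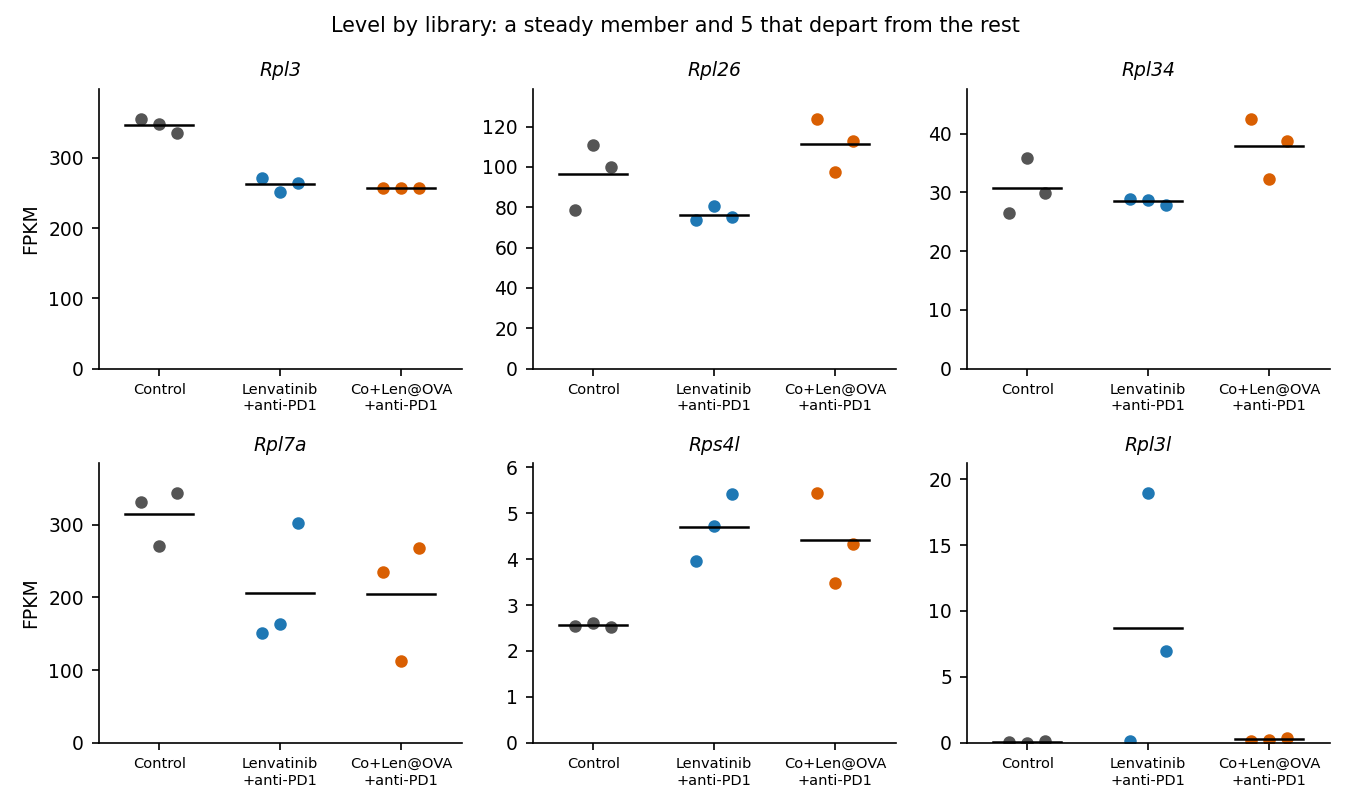
FPKM (y axis, from 0, scaled per panel) of 6 members in the 3 groups; points are single libraries and the line is the mean of 3. Rpl3 is lower in both treated groups, Rpl26 and Rpl34 are higher in the nanocluster than in the lenvatinib group, and Rpl7a, Rps4l and Rpl3l follow patterns of their own.

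Rpl34 and several other members share sequence with processed pseudogenes, and their deposited values can be split between copies. The table holds 247 rows named as ribosomal protein pseudogenes, of which 155 were tested, and they summed to 24.3% to 28.3% of the members' own sum. Of the 57 members with such rows, 9 had more FPKM in the pseudogene rows than in their own. Among them were Rpl3, given above, Rps12 (401% of its own value) and Rps7 (144%). With pseudogene rows added, the log2 ratio of means of Rps12 in nanocluster against lenvatinib moved from -0.47 to -0.57. That of Rps7 in lenvatinib against Control moved from -0.36 to -0.25. For Rpl34 the pseudogene rows summed to 3676% of its value, and gene and pseudogenes together were lower, at a log2 ratio of means of -0.62 in nanocluster against Control and -0.47 in nanocluster against lenvatinib. The rise of Rpl34 is therefore uncertain. For Rpl26 they came to 0.22%, and the value with them remained 0.54.

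Rpl17, a tunnel protein, fell by 0.61 ± 0.17 (limma adjusted p = 0.0258) in nanocluster against Control, from 935, 692 and 567 to 477, 454 and 474 FPKM, and was at 777, 757 and 643 in the lenvatinib group. Its pseudogene rows summed to 186% of its own value, and together the ratio was -0.36. Rpl7a, chosen after its values were seen, was at 331, 271 and 343 FPKM in Control libraries 1 to 3, 151, 163 and 303 in the lenvatinib group and 234, 112 and 268 in the nanocluster group, with the widest spread of any core gene relative to the library median. The nanocluster libraries lay below the Control libraries, library 3 only narrowly, and the lenvatinib libraries overlapped both. No comparison passed (-0.71 ± 0.36, limma adjusted p = 0.162 for nanocluster against Control). With pseudogene rows at 102% of its value, the ratio of the combined sums in nanocluster against Control was -0.26. These sums varied less than its own row. They were 618, 489 and 528 FPKM in Control libraries 1 to 3, 472, 446 and 492 in the lenvatinib group and 443, 457 and 463 in the nanocluster group. Rps19 moved from -0.37 to -0.10 with its pseudogene rows. Over the 57 members, gene and pseudogenes together were lower in 56, 54 and 53 in the 3 comparisons, with medians of -0.35, -0.19 and -0.15.

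The rule also takes in 6 paralogue or pseudogene-like rows, of which 5 were tested, and their patterns varied. Rps4l, a copy of Rps4x, rose in both treated groups: it was at 2.54, 2.61 and 2.52 FPKM in Control libraries 1 to 3, 3.96, 4.71 and 5.42 in the lenvatinib group and 5.44, 3.48 and 4.32 in the nanocluster group, so that every treated library was above every Control library. Its log2 fold changes were 0.67 ± 0.16, adjusted p = 0.0146 in the nanocluster group and 0.76 ± 0.16, adjusted p = 0.0112 in the lenvatinib group (limma), and it kept both calls in 19 of 20 settings. Its mean was 3.89 FPKM against 1129 for Rps4x. Reads of Rps4x assigned to Rps4l cannot be told apart from its own in these values, so the rise is uncertain.

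Rpl3l, the striated-muscle counterpart of Rpl3, was at 0.0374, 0 and 0.125 FPKM in Control libraries 1 to 3, 0.158, 18.9 and 6.98 in the lenvatinib group and 0.147, 0.237 and 0.369 in the nanocluster group. Lenvatinib libraries 2 and 3 stood far above the other 7, and the comparison with Control did not pass (3.05 ± 1.04, adjusted p = 0.0674, limma). The 8 striated-muscle markers, all found, with Myh4 at 0 in Control libraries 1 and 2 and Myh1 in Control library 1, summed to 1.46 to 43.2 FPKM in the nanocluster and Control libraries and, as given above, to most in lenvatinib libraries 2 and 3; their part was not tested. Rps27l, a p53-responsive copy of Rps27, was at 68.6, 52.5 and 51.7 FPKM in Control libraries 1 to 3, 78.7, 61.4 and 69.8 in the lenvatinib group and 49.4, 63.8 and 54.1 in the nanocluster group, with values of -0.04 (adjusted p = 0.842) and 0.28 (adjusted p = 0.194) against Control in the nanocluster and lenvatinib groups.

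Rpl39l, a testis-enriched copy of Rpl39, lay between 0 and 0.176 FPKM and was under the floor for testing. Rpl32l was at 5.34, 3.21 and 5.20 FPKM in Control libraries 1 to 3, 3.53, 3.86 and 3.13 in the lenvatinib group and 3.28, 3.33 and 2.47 in the nanocluster group and did not pass in any comparison. Rpl6l fell in nanocluster against Control (-0.38 ± 0.12, adjusted p = 0.0412, limma), from 77.3, 57.8 and 61.4 to 47.0, 52.2 and 49.9 FPKM.

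Ribosomal protein transcripts are short, and within the lenvatinib group the difference between tumours followed their length. The 76 core genes have a median coding length of 454.5 nucleotides (75 to 1257), against 1317 for other tested genes. Between lenvatinib libraries 1 and 2 the log2 difference had a median of 0.36 for the 25 genes under 400 nucleotides, 0.21 for the 30 from 400 to 600 and 0.11 for the 21 of 600 or more. Its Spearman correlation with coding length was -0.79 across the 76 genes and -0.05 across 12962 other genes; genes of 1 library share its RNA and preparation and are not independent replicates. For libraries 1 and 2 of the nanocluster group the correlation over core genes was -0.11, and for Control -0.22.

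**Figure D4:**
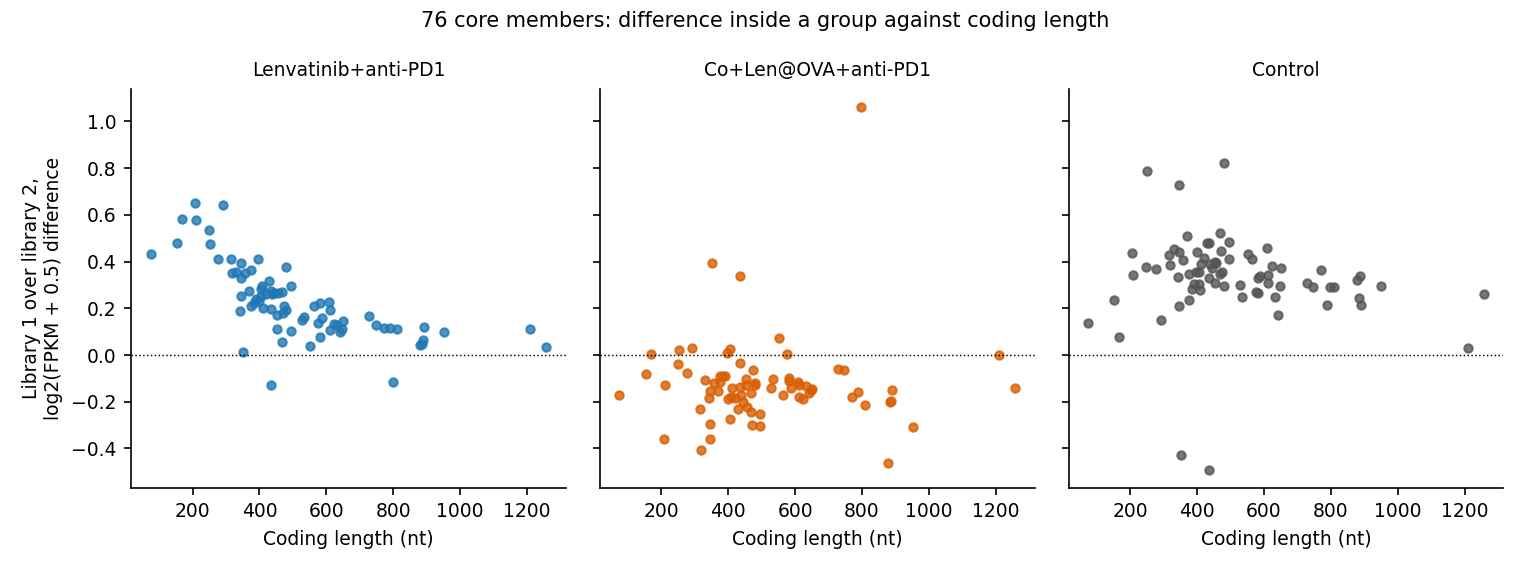
For each of the 76 core genes, the log2 difference between libraries 1 and 2 of a group (y axis) against coding length in nucleotides (x axis), 1 panel per group. In the lenvatinib panel the shortest genes lie highest (Spearman -0.79), while the nanocluster (-0.11) and Control (-0.22) panels show little slope.

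The group comparisons carry the same feature to different degrees. In lenvatinib against Control the median log2 fold change was -0.07 for core genes under 400 nucleotides, -0.20 for those from 400 to 600 and -0.23 for longer ones (Spearman -0.41, n = 76 genes). In nanocluster against Control the corresponding medians were -0.33, -0.36 and -0.36 (Spearman -0.16). In nanocluster against lenvatinib they were -0.23, -0.16 and -0.14 (Spearman 0.28). The part of transcript length in the lenvatinib comparisons was not tested.

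Genes that work beside the ribosomal proteins were read from lists of translation and ribosome-making genes. Rack1, a ribosome-bound scaffold protein whose symbol lies outside the rule above, was at 558, 468 and 509 FPKM in Control libraries 1 to 3, 399.9, 377 and 412 in the lenvatinib group and 352, 365 and 362 in the nanocluster group and fell in both treated groups (-0.50 ± 0.08, adjusted p = 0.00251 and -0.37 ± 0.08, adjusted p = 0.0116, limma). Rpl7l1, a copy of Rpl7, rose in nanocluster against Control by 0.41 (adjusted p = 0.0465). Of the 7 such rows, 2 fell and 1 rose in nanocluster against Control, 1 fell in lenvatinib against Control and none passed in nanocluster against lenvatinib.

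Of 20 elongation factors and other TOP transcripts, 7 fell and none rose in nanocluster against Control (median -0.16), 6 fell in lenvatinib against Control (-0.07), and 3 fell and 1 rose in nanocluster against lenvatinib (-0.12). Eef2, the translocase of elongation, was at 1729, 1743 and 1752 FPKM in Control libraries 1 to 3, 1486, 1438 and 1517 in the lenvatinib group and 1190.0, 1062 and 1113 in the nanocluster group. Its 3 groups did not overlap, and it fell by 0.64 (adjusted p = 0.000441), 0.23 (adjusted p = 0.0314) and 0.40 (adjusted p = 0.00291) in the 3 comparisons (limma). Eif3e, an initiation factor subunit with a TOP transcript, had -0.63 and -0.52 against Control, and Eef1a1, which delivers transfer RNAs, -0.41 and -0.32, all past the threshold. The one rise was in Vim, a filament protein of mesenchymal cells (0.62 in nanocluster against lenvatinib, after -0.46 in lenvatinib against Control).

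The machinery that makes and starts ribosomes did not move as one block. Of 26 initiation factors, 4 rose and 8 fell in nanocluster against Control, led by Eif4a2, a helicase (0.83), and Eif4h, its cofactor (-0.72). Of 63 ribosome biogenesis factors, 8 rose and 9 fell in that comparison (median -0.01), or 6 and 18 under median-of-ratios scaling. In lenvatinib against Control 15 rose and 1 fell (median 0.14), and in nanocluster against lenvatinib 1 rose and 15 fell (median -0.17). The counts against lenvatinib are given on the deposited scale only. On the TPM scale the median of all genes in that comparison moved from 0.07 to 0.17. Nop56, a core protein of the box C/D particles that methylate ribosomal RNA, was at 35.2, 35.4 and 37.0 FPKM in Control libraries 1 to 3, 58.1, 52.9 and 57.9 in the lenvatinib group and 34.8, 44.7 and 39.8 in the nanocluster group; it was 0.64 higher in lenvatinib against Control and fell by 0.50 in nanocluster against lenvatinib. Of the 11 RNA polymerase I genes found of 14 listed, 1 rose and 2 fell, 1 rose, and 1 fell in the 3 comparisons.

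**Figure D5:**
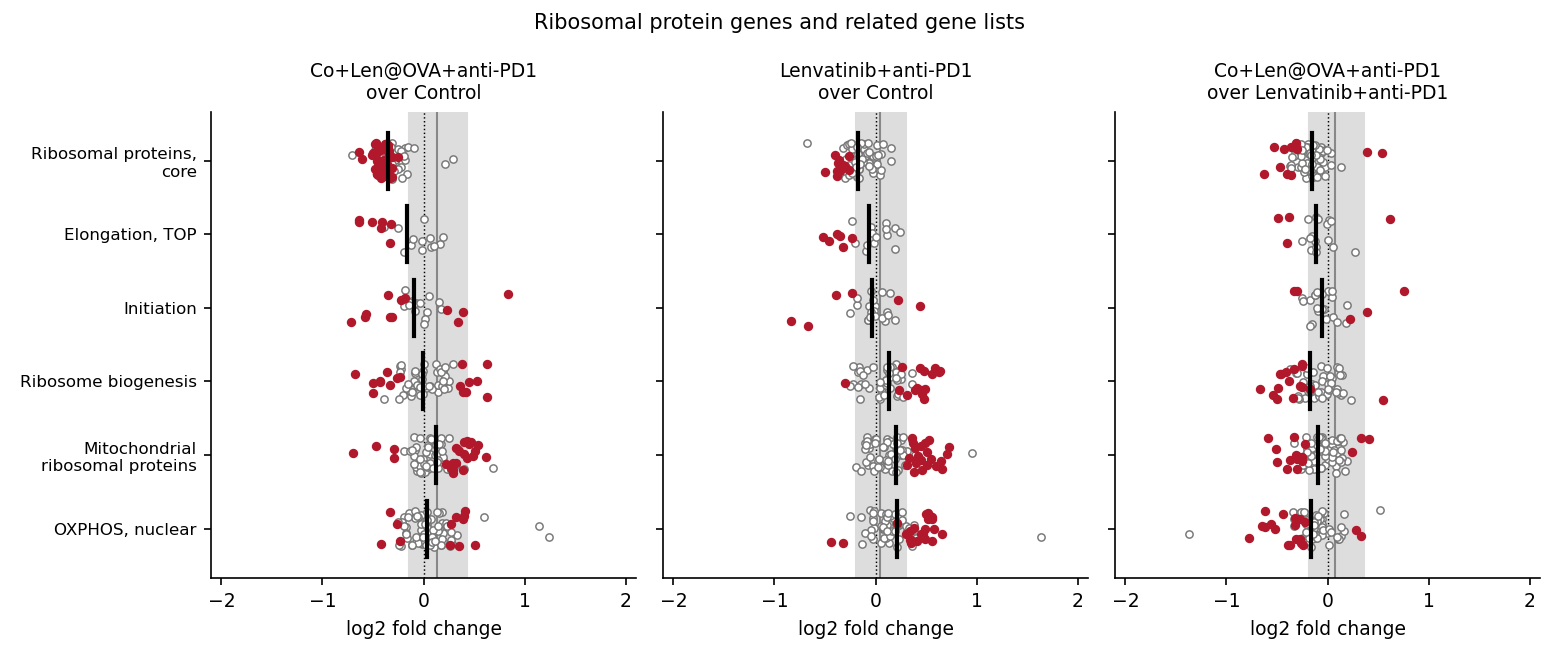
Log2 fold changes (x axis) of core ribosomal protein genes and 5 related lists (y axis) in the 3 comparisons. Red points passed limma's adjusted threshold of 0.05 and open points did not. Black bars are list medians, and the grey band and line are the quartiles and median of all tested genes. The core members' medians (-0.35, -0.18 and -0.16) lie left of the line in each comparison, while mitochondrial ribosomal proteins lie at 0.13, 0.20 and -0.09.

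Mitochondrial ribosomal proteins, which build the separate ribosome of mitochondria, were also compared. Of 78 such genes, 20 rose and 4 fell in nanocluster against Control (median 0.13, as for all genes), which became 8 and 5 (median 0.01) under median-of-ratios scaling. In the other comparisons 22 rose and none fell in lenvatinib against Control (median 0.20), and 3 rose and 13 fell in nanocluster against lenvatinib (median -0.09), or 6 and 5 (median 0.01) on the TPM scale. Mrpl24 rose by 0.62 and Mrps30 fell by 0.69 in the first comparison, and Mrpl36 and Mrpl34 rose by 0.72 and 0.71 in the second. The 80 nuclear genes of oxidative phosphorylation had 8 rises and 4 falls, 22 and 2, and 2 and 17 in the same order. The first became 3 and 11 under median-of-ratios scaling, and the others are given on the deposited scale only. The 31 genes of the constitutive proteasome, another large complex of fixed proportions, had 5 rises and 4 falls, 4 and 1, and 1 and 2, the first becoming 0 and 7 under median-of-ratios scaling and the last 5 and 0 on the TPM scale. The elongation and TOP list kept its sign of median under every scaling, as did the members.

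Genes that read or control ribosome production showed single changes. Of 21 genes of the mTOR pathway and its targets, 5 rose and 2 fell in nanocluster against Control, among them Deptor, an inhibitor of mTOR (-1.03), and Rps6kb2, an S6 kinase (0.73). In lenvatinib against Control 3 rose and 1 fell, led by Mycn (1.96), a growth-promoting transcription factor. Of 13 genes that link ribosome stress to p53, Cdkn1a, a p53 target that halts the cell cycle, fell in both treated groups (-0.70 and -0.76), Trp53 itself rose (0.51 and 0.72), and Mdm2, the p53 target that Rpl5 and Rpl11 bind, was at 0.25 (limma adjusted p = 0.0963) in nanocluster against Control.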

How the data were processed

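The authors deposited 1 table for the 9 tumours with values in FPKM for 32761 genes. Per the submitters' processing notes fastp, StringTie and edgeR were used, without versions or order. Aligner, build and annotation were not given in the sources used here. Per the labels' protocols, polyadenylated RNA went into strand-marked libraries read as pairs of 150 bases.

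The 15353 genes whose mean reached 0.5 FPKM were fitted with limma 3.58.1 in R 4.3.3 (mean-variance trend, robust empirical Bayes) on log2(FPKM + 0.5), all 9 libraries in 1 fit with 6 residual degrees of freedom and no replicate block. "Rose" and "fell" mean a Benjamini-Hochberg adjusted p under 0.05 over all genes tested. Fold changes are on the log2(FPKM + 0.5) scale, which understates changes of low genes, and errors are standard errors unless called SD. The p-values rest on the spread between libraries within groups, pooled over all 3 groups, with libraries taken as independent. Those for 2 groups therefore depend also on the spread in the third. The main fit used the deposited FPKM without further scaling. Because FPKM are relative to library size, a rise of other transcripts lowers all members.

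Low values were searched for whole-fragment steps. Between 19.3% and 22.4% lay on a step, where 10.0% is given by the tolerance alone, so reads were not recovered, depth is not known and no count model was run. Coding lengths came from GENCODE M21 for 32668 matching gene IDs, and start sequences from RefSeq on GRCm38.p6, which need not be the build of the deposited values.

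Members, gene lists and naming rules were chosen with earlier results of these data known. Named were the 6 largest changes in each direction and comparison, members passing against both other groups, the 3 most and 3 least abundant, and a set of members with known roles. Rpl6l and Rpl32l were added to the paralogue rows after the table was seen, and Rpl10l, on that set, had no row. Some single genes are not reported here. The fit was tested on simulated data. Alternatives were another pseudocount, no filter, TPM, 3 other scalings, plain variance, 2-group fits, a replicate block, libraries 1 and 2 only and each library left out.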

Additional observations from a re-analysis of the deposited data

How the results depend on the processing

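Members' medians stayed negative in each comparison under all 20 settings. Of 1938 alternative values for single members, 1432 kept direction and call, 452 lost the call, 18 gained it and 36 changed sign. Those kept include values of results that passed in neither fit, which had no call to lose. The values belong to 102 results, and calls were lost in 71 of these. Every result that passed in the main fit lost its call in some setting. The cause of each shift below was not tested, other than fewer samples in the smaller fits. Without known depth no counting error can be given for low members such as Rpl3l, Rpl32l, Rpl39l and Rps4l.

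For members lower in nanocluster against Control (46), the count was 25 with the 2 groups alone, 0 with libraries 1 and 2 only, and 17 (without nanocluster library 3) to 59 (without Control library 2) when 1 library was left out. For members higher (1) it was 0 with libraries 1 and 2, and 1 to 2 over leave-outs. For members lower in lenvatinib against Control (11), it was 7 without the filter, 30 on the TPM scale, 5 with median-of-ratios and 7 with upper-quartile scaling, 3 with 2 groups, 0 with libraries 1 and 2, and 1 to 19 over leave-outs; for members higher (1), 0 and 1 to 2. For members lower in nanocluster against lenvatinib (10), it was 2 without the filter, 3 on the TPM scale, 6 with upper-quartile scaling, 21 with 2 groups, 0 with libraries 1 and 2, and 0 to 24 over leave-outs. For members higher (2) it was 1 without the filter, without mitochondrial transcripts, with median-of-ratios or upper-quartile scaling and with plain variance, 0 with libraries 1 and 2, and 0 to 2 over leave-outs. The members' share of the total was 10.5%, 11.7% and 13.0% in the nanocluster, lenvatinib and Control groups without mitochondrial transcripts, and 9.92% and 12.3% in nanocluster and Control with 5 further ribosomal rows added.

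The labels number the tumours 1 to 3 in each group. Deviations from group means correlated between same-numbered libraries at -0.25 to 0.08 and between different-numbered libraries at -0.19 to 0.24. Deviations from a mean of 3 libraries depend on each other, so these correlations cannot decide whether the numbers pair the samples. With the number as a replicate block, 31, 5 and 3 members were lower and 1, 1 and 0 higher in the 3 comparisons.

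Among the members' values so examined, sign changes affected 10 that had not passed. Over leave-outs in nanocluster against Control, Rps27l ranged from -0.14 to 0.088 and Rps27 from -0.31 to 0.080. In lenvatinib against Control the ranges were -0.094 to 0.072 for Rplp1, -0.034 to 0.19 for Rplp2, -0.12 to 0.17 for Rpl38, -0.20 to 0.013 for Rpl34 and -0.062 to 0.10 for Rps15. In nanocluster against lenvatinib they were -0.27 to 0.36 for Rpl7a, -0.24 to 0.051 for Rps4l and -0.15 to 0.0063 for Rplp0. On the TPM scale these values were 0.0019 for Rps27l, -0.010 for Rplp2, -0.014 for Rpl38, -0.048 for Rps15, 0.078 for Rpl7a, 0.0045 for Rps4l and 0.031 for Rplp0. Without mitochondrial transcripts Rps27l was at 0.010 and Rpl7a at 0.0034, and with libraries 1 and 2 only Rplp2 was at -0.012, Rpl7a at 0.046 and Rps4l at 0.011. Rps15 was at -0.021 with libraries 1 and 2 only, -0.028 with median-of-ratios and -0.022 with upper-quartile scaling.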
